A study of Rattus norvegicus with 6 samples.

Results

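The genes of cholesterol (sterol) and fatty acid synthesis were followed in rat tendon stem/progenitor cells, a mesenchymal cell population grown from tendon, with and without N-acetyl-L-cysteine (NAC), a thiol compound used as an antioxidant and cysteine source. The set was a list of 31 gene symbols covering the enzymes of both pathways and their transcriptional regulators; of these, 30 had a row in the deposited table of 33300 rows, and 29 were abundant enough to be tested among 12733 genes. The sterol branch held 21 genes, all tested. The fatty acid branch held 10 symbols, of which 9 had a row and 8 were tested. The symbol Scd had no row, and Elovl6 (2 rows, the one with the higher mean used) lay under the abundance limit. Bulk mRNA sequencing libraries were made from 3 samples cultured for 7 days in F12 medium (Control) and 3 cultured for 7 days in F12 medium with NAC at 500 µM. All 6 are labelled as tenogenic differentiation, so that state, the F12 medium and the time were shared by both groups. The labels give no strain, sex or age of the rats and do not say whether a group's 3 libraries stem from separate animals or cultures, so every p-value here measures the spread between these libraries, which may be technical.

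Both pathways start from cytosolic acetyl-CoA. The sterol branch runs through mevalonate, isoprenoid units and squalene to lanosterol and then cholesterol, and the fatty acid branch runs through malonyl-CoA to palmitate, which is elongated, desaturated and built into glycerolipids. Their genes are transcribed under SREBP factors, membrane-bound in the endoplasmic reticulum until sterols run low: SREBP-2, made from Srebf2, acts mainly on sterol genes, and SREBP-1, made from Srebf1, mainly on fatty acid genes. INSIG proteins hold the SREBP escort SCAP in the endoplasmic reticulum, NF-Y and Sp1 bind beside SREBP at many of these promoters, and liver X receptors also drive Srebf1.

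RefSeq promoter windows of the GRCr8 rat assembly, each reaching from 250 bases before to 50 bases after an annotated gene start, could be matched to 23 of the 30 genes (17 sterol and 6 fatty acid genes), as 24 windows because Srebf1 has 2. No window was found for Pmvk, Fdft1, Sqle, Stard4, Acaca, Fasn and Elovl6. Searched on both strands, the letters CCAAT, the core of the NF-Y box, were in 14 of the 17 sterol gene windows (82.4%) and 6 of the 7 fatty acid gene windows (85.7%), the latter from 5 of 6 genes. The same letters were in 37.5% of all 33469 rat promoter windows and in 37.2% of the 9295 windows of tested genes. The Sp1 letters GGGCGG were in 15 of the 17 sterol gene windows (88.2%) and 6 of the 7 fatty acid gene windows (85.7%, again 5 of 6 genes), against 33.1% of all windows and 63.3% of windows of tested genes. The letters TCACNCCAC, 1 spelling of the sterol regulatory element, were in none of the 17 or 7 windows and in 1.12% of all windows. These shares describe letters in short windows and were not tested, and none of the 3 motifs contains another. Shown here are the stretches around the CCAAT letters of those genes whose RNA passed the test described further on and whose window holds them; capitals mark CCAAT, or ATTGG where it lies on the other strand, and each stretch reads 5′ to 3′ on the strand given.
Hmgcs1, chr2:53382086-53382205, plus strand, boxes 188 and 133 bases before the start: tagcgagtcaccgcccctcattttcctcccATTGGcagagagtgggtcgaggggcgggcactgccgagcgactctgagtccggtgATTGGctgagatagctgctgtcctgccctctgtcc
Insig1, chr4:8057928-8057992, minus strand, box 193 bases before the start: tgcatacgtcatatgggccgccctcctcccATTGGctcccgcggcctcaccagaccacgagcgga
Srebf2, chr7:115543148-115543212, plus strand, box 129 bases before the start: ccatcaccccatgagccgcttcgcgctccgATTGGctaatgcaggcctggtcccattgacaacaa
Acly, chr10:85963668-85963732, minus strand, box 71 bases before the start: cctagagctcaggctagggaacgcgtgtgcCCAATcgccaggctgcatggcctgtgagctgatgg
Srebf1, first start, chr10:45519084-45519171, minus strand, boxes 131 and 108 bases before the start: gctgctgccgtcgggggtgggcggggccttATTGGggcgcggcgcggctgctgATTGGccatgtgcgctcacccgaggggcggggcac
Srebf1, second start, chr10:45529299-45529363, minus strand, box 169 bases before the start: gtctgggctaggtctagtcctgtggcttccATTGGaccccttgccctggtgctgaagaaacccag
The Srebf1 starts are numbered by coordinate, so on the minus strand the second start lies upstream of the first. Dhcr7 was the other gene that passed the test, and its window has no CCAAT on either strand.

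The values are FPKM, sequenced fragments scaled to gene length and library size, as the authors deposited them. Whole read counts could be recovered from them, and came to 12487215 to 14941949 reads per library. Each library had 12569 to 12757 genes at an FPKM of 1 or more. The summed level of 9 tendon markers was 9430 to 9710 FPKM in Control and 14000 to 14800 in NAC, with none at 0. Of the 9, 4 were called higher (Col1a1, Col1a2, Dcn and Tnc) and 0 lower, where 6.08% of all tested genes were called higher and 2.72% lower. The calls of Col1a2 and Tnc held in 6 and 8 of 15 alternative analyses, those of Col1a1 and Dcn in 14 and 13. Most of the summed level came from Col1a1 and Dcn. The tendon transcription factor genes Mkx and Scx went from a mean of 5.28 to 3.90 and from 12.5 to 11.6 FPKM, neither past the test (adjusted p = 0.192 and 0.519 in limma). The rest of the 9, Tnmd, Thbs4 and Fmod, had higher means in NAC and did not pass the test either (adjusted p = 0.0909, 0.0916 and 0.16 in limma). Tnmd went from a mean of 1.41 to 2.55 FPKM, on 18 to 52 reads per library. The 4 mesenchymal progenitor surface markers summed to 1080 to 1190 FPKM in Control and 1190 to 1290 in NAC. Since lipid synthesis is high in fat cells, adipocyte markers bear on this gene set: the sum over 6 of them was 2.46 to 3.61 FPKM in Control and 3.37 to 3.85 in NAC, and Adipoq, Plin1, Cidec, Lep and Pparg were under 1 FPKM in every library. The rest of that sum was mainly Fabp4, at 1.84 to 2.83 FPKM in Control and 2.76 to 2.98 in NAC, which overlapped (log2 fold change 0.27, adjusted p = 0.239). Markers of leukocytes (Ptprc), endothelium (Cdh5) and Schwann cells (Sox10) were at 0 in all 6 libraries, and the sum over 5 skeletal muscle markers was 6.64 to 7.07 FPKM in Control and 7.18 to 8.3 in NAC.

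After culture with NAC, 5 of the 29 tested genes rose and 1 fell, where 6.08% of all tested genes were called higher and 2.72% lower. The risers were Hmgcs1 and Dhcr7, an early and a late enzyme of cholesterol synthesis, Srebf2 and Insig1, which regulate that pathway, and Acly, which makes the cytosolic acetyl-CoA that feeds both branches. The gene that fell was Srebf1. Their changes were modest, between 17.1% and 46.6% of the Control mean for the risers and 19.2% for Srebf1. In each of the 6 all NAC libraries lay beyond all Control libraries, which rests on the same values as the calls and adds no support to them. The other 23 tested genes did not pass the test. A call means an adjusted p under 0.05 (limma on log2(FPKM + 1), Benjamini-Hochberg adjustment over the 12733 genes whose mean FPKM reached 1). In bulk libraries a change in the share of cells of a type and a change in RNA per cell cannot be told apart.

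By branch, 4 of 21 sterol genes were called higher and 0 lower, with 8 higher and 0 lower at an unadjusted p under 0.05 and 4 higher and 0 lower when limma-voom was run on the recovered reads. Of the 8 tested fatty acid genes, 1 was called higher and 1 lower, with 5 and 1 at an unadjusted p under 0.05 and 3 and 1 by limma-voom. The limma-voom fit kept the library scaling of the deposited FPKM, so it is no check on that scaling. Across all 12733 tested genes, 6.08% (774) were called higher and 2.72% (346) lower. That split became 467 higher and 3722 lower when values were scaled to library totals and 567 and 408 after quantile normalisation. At an unadjusted p under 0.05, 1836 of all tested genes were higher and 1519 lower, and limma-voom called 1035 higher and 529 lower. With any 1 library left out, 0 to 2 sterol genes were called higher, and in the fatty acid branch 0 to 1 higher and 0 to 1 lower. The 3 NAC libraries lay entirely above the 3 Control libraries for 8 of 21 sterol genes and 4 of 8 fatty acid genes, against 16.7% of all tested genes, and entirely below for 0 and 1, against 15.9%. The median log2 fold change (NAC over Control, on the log2(FPKM + 1) scale, which understates changes of low genes) was 0.18 over the sterol genes, ranging from -0.07 to 0.44. Over the tested fatty acid genes it was 0.20, ranging from -0.27 to 0.25, while the median over all tested genes was -0.01. On the deposited scale 18 of 21 sterol genes and 7 of 8 fatty acid genes were above 0, against 48.5% of all tested genes. When the values were instead scaled to each library's own total of reads, the median of all genes shifted by -0.16, the branch medians became 0.02 and 0.04, and 12 of 21 and 6 of 8 genes were above 0. Relative to the median of all genes the branch medians were 0.18 and 0.20 under that scaling as well.

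**Figure D1:**
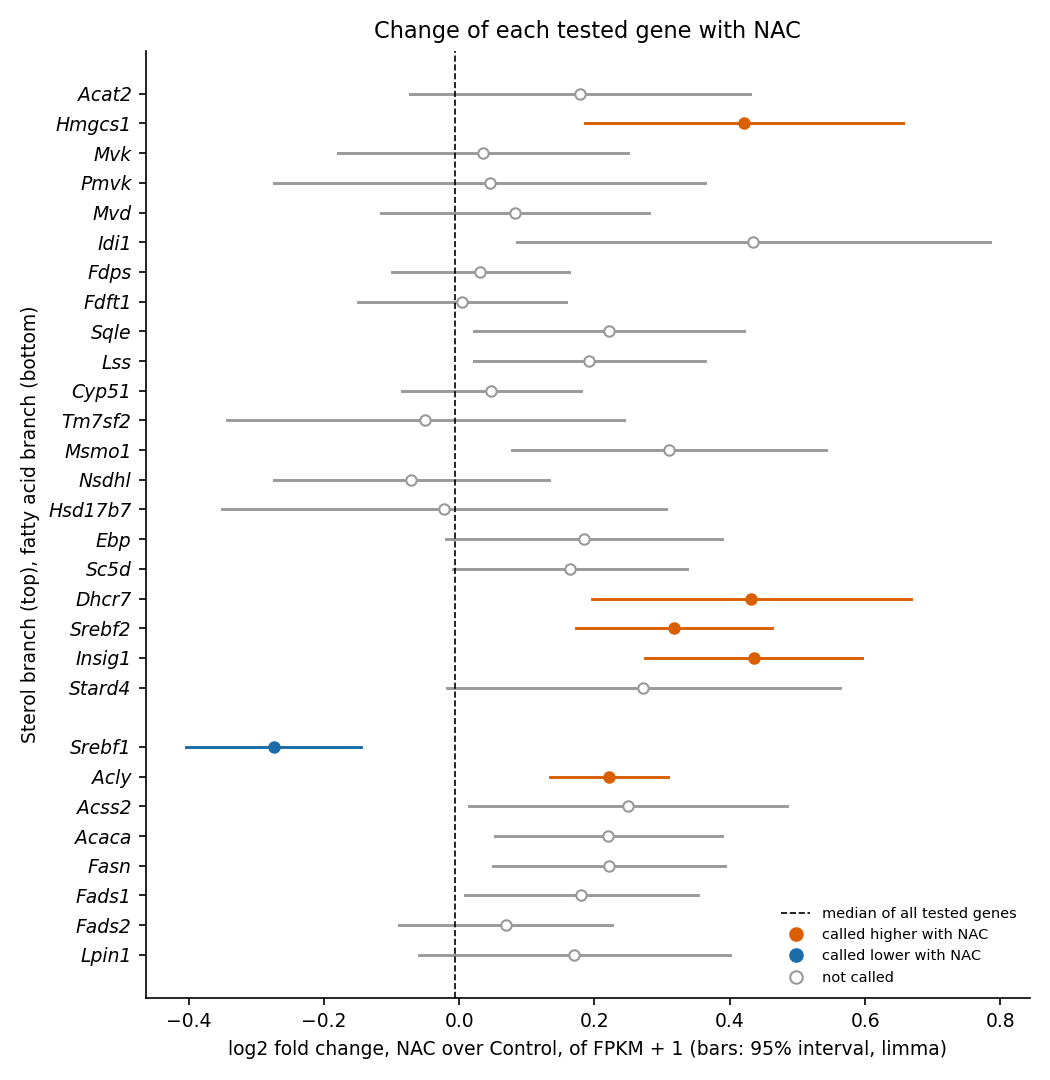
Log2 fold change of each tested gene, NAC over Control on the log2(FPKM + 1) scale, with bars for the 95% interval from limma, sterol genes above fatty acid genes; orange was called higher, blue lower and open grey not called, and the dashed line is the median of all tested genes. Insig1 (0.44) and Dhcr7 (0.43) are the highest of the called genes, and Srebf1 (-0.27) is the lowest of all.

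The first steps of the sterol branch join acetyl units and make mevalonate. Hmgcs1, the cytosolic HMG-CoA synthase that condenses acetoacetyl-CoA with acetyl-CoA (ENSRNOG00000016552, deposited at chromosome 2, 52431601 to 52445055, on a build that no source used here names), was at 8.48, 7.59 and 8.59 FPKM in Control 1, 2 and 3 and at 13.0, 11.3 and 9.93 FPKM in NAC 1, 2 and 3. All NAC libraries were above all Control libraries, with NAC 1 the highest and NAC 3 nearest to Control. The mean went from 8.22 ± 0.551 to 11.4 ± 1.52 FPKM (SD, n = 3 each), a log2 fold change of 0.42 ± 0.10 (SE) with an adjusted p of 0.047 in limma. The call was lost when any 1 library other than NAC 3 was left out, with adjusted p from 0.0931 to 0.131. It held in 6 of 15 alternative analyses and was also lost with scaling to library totals (adjusted p = 0.0812 in limma). Acat2, which makes the acetoacetyl-CoA, was at 3.17, 3.27 and 3.90 FPKM in Control and 4.58, 3.71 and 3.81 in NAC, so that the groups overlapped (adjusted p = 0.333). Mvk, the mevalonate kinase, was at 6.88 to 8.32 FPKM in Control and 7.42 to 8.74 in NAC. Pmvk, the phosphomevalonate kinase that follows it, spanned 8.36 to 10.8 FPKM in Control and 8.43 to 11.8 in NAC. Mvd, the decarboxylase that yields isopentenyl diphosphate, was at 6.75 to 8.19 and 7.55 to 8.42 FPKM. These 3 consecutive enzymes had log2 fold changes of 0.04, 0.05 and 0.08, none past the test.

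Isopentenyl diphosphate is isomerised by Idi1 and chained into farnesyl diphosphate by Fdps, which Fdft1 turns into squalene. Idi1 was the least abundant of the 3, at 1.16, 0.866 and 1.53 FPKM in Control and 1.99, 1.73 and 2.09 in NAC. Its NAC libraries were all above its Control libraries, but on 31 to 76 reads per library, and the mean ratio of 1.63 (log2 fold change 0.44 ± 0.15 SE) did not pass the test (adjusted p = 0.118). Fdps was at 24.8, 25.7 and 24.4 FPKM in Control and 23.8, 26.8 and 26.1 in NAC, on at least 973 reads. Fdft1 was at 11.68, 10.97 and 11.97 FPKM in Control and 12.31, 11.7 and 10.76 in NAC. Both overlapped fully, and the 95% intervals of their fold changes on the FPKM + 1 scale were 0.934 to 1.12 for Fdps and 0.901 to 1.12 for Fdft1.

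Squalene is epoxidised by Sqle, a rate-controlling enzyme, and closed into lanosterol by Lss. Sqle was at 5.78, 7.26 and 6.37 FPKM in Control and 7.37, 7.86 and 7.83 in NAC. The groups did not overlap, but Control 2 lay just under NAC 1, and the adjusted p was 0.155. Lss was at 15.8, 14.8 and 14.9 FPKM in Control and 18.9, 17.8 and 15.8 in NAC, with NAC 3 just below Control 1 and an adjusted p of 0.15.

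The 8 genes that take lanosterol to cholesterol differed among themselves. Dhcr7, the reductase of the last step (ENSRNOG00000020776, deposited at chromosome 1, 217018916 to 217034904), was at 2.43, 2.83 and 3.22 FPKM in Control and 3.94, 4.26 and 4.24 in NAC. All NAC libraries exceeded all Control libraries by a clear gap, and the Control libraries were more spread than the NAC ones. The mean went from 2.83 ± 0.396 to 4.15 ± 0.181 FPKM (SD, n = 3 each), with a log2 fold change of 0.43 ± 0.10 (SE) and an adjusted p of 0.0446 in limma. The call rested on 92 to 159 reads per library and was lost on leaving out any 1 of the 6 libraries (adjusted p 0.0559 to 0.137). It held in 4 of 14 alternative analyses and was also lost with scaling to library totals (adjusted p = 0.0623 in limma). Msmo1, a methylsterol oxidase, was at 14.3, 16.4 and 15.4 FPKM in Control and 19.1, 22.1 and 17.0 in NAC. Again the groups were apart and NAC 3 was the lowest NAC library, with a log2 fold change of 0.31 ± 0.10 (SE) and an adjusted p of 0.101. The isomerase Ebp was at 14.7 to 16.5 FPKM in Control and 16.1 to 20.1 in NAC, and the desaturase Sc5d at 6.58 to 7.10 and 7.06 to 8.30. Cyp51, the lanosterol demethylase, was at 13.3 to 14.6 FPKM in Control and 13.8 to 14.9 in NAC (fold interval 0.943 to 1.13). For Nsdhl, Hsd17b7 and Tm7sf2, which act in demethylation and double-bond reduction, the log2 fold changes were -0.07, -0.02 and -0.05, the only values below 0 in the branch on the deposited scale. Hsd17b7 and Tm7sf2 were low, at 1.00 to 1.58 and 1.30 to 1.74 FPKM over the 6 libraries, and Tm7sf2 overlaps Vps51 on the same strand in the deposited coordinates, so reads of those 2 could have been split in counting.

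The 3 remaining sterol genes are regulators or carriers, and in all 3 the NAC libraries lay above the Control libraries. Insig1, the sterol-regulated anchor of SCAP and itself an SREBP target (ENSRNOG00000006859, deposited at chromosome 4, 342302 to 350515), was at 17.1, 16.1 and 14.8 FPKM in Control and 23.0, 22.1 and 20.7 in NAC. The lowest NAC library was above the highest Control library by more than the whole range of Control. The mean went from 16.0 ± 1.18 to 21.9 ± 1.17 FPKM (SD, n = 3 each), a log2 fold change of 0.44 ± 0.07 (SE) with an adjusted p of 0.0139 in limma. The call held in 12 of 15 alternative analyses. It was lost without NAC 1 (adjusted p = 0.0599 in limma), without NAC 2 (0.0628) and with no filter on low values (0.0867). Srebf2, which encodes SREBP-2 (ENSRNOG00000007400, deposited at chromosome 7, 123381077 to 123438603), was at 13.4, 13.6 and 14.8 FPKM in Control and 18.6, 17.2 and 16.9 in NAC. The 2 groups were apart, with NAC 1 the highest. The mean went from 13.9 ± 0.772 to 17.6 ± 0.943 FPKM, a log2 fold change of 0.32 ± 0.06 (SE) with an adjusted p of 0.0269 in limma. The call was lost when any 1 library other than Control 3 was left out (0.0532 to 0.0882). It held in 7 of 15 alternative analyses. Scaled to library totals the Srebf2 value was 0.153, and the call was lost (adjusted p = 0.1002 in limma). Stard4, a carrier of cholesterol between membranes, was at 1.74, 1.85 and 1.27 FPKM in Control and 2.23, 2.14 and 2.08 in NAC on 50 to 81 reads, which did not pass the test (adjusted p = 0.212).

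**Figure D2:**
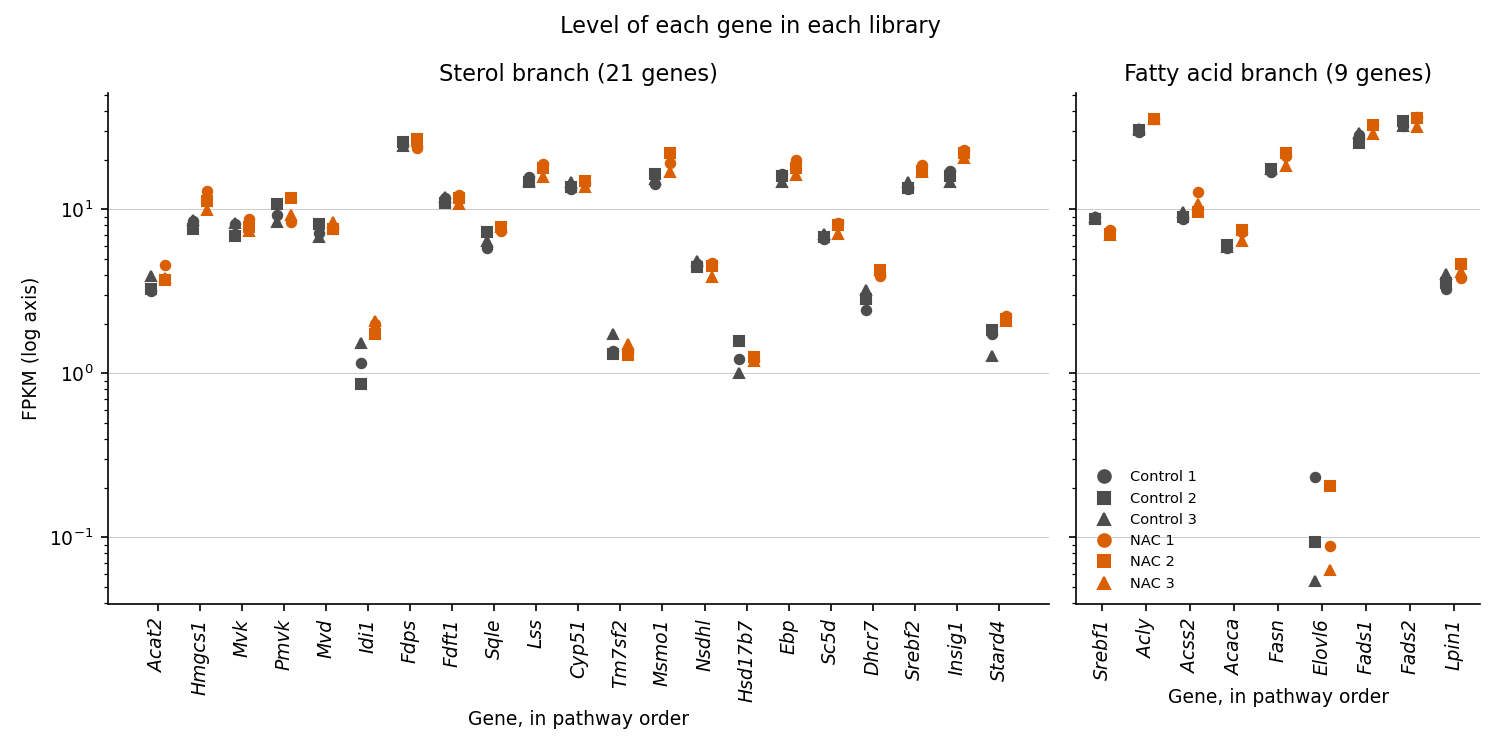
FPKM of each gene in each of the 6 libraries (log axis), Control in grey and NAC in orange, in pathway order for the 21 sterol and 9 fatty acid genes. The NAC points of Insig1, Srebf2, Dhcr7 and Hmgcs1 lie above all their Control points, and those of Srebf1 below.

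In the fatty acid branch the regulator fell and the enzyme that supplies acetyl-CoA rose. Srebf1, which encodes SREBP-1 (ENSRNOG00000003463, deposited at chromosome 10, 46570996 to 46593009), was at 8.94, 8.75 and 8.97 FPKM in Control and 7.50, 7.04 and 7.00 in NAC. All NAC libraries were below all Control libraries, and the Control libraries lay close together. The mean went from 8.89 ± 0.121 to 7.18 ± 0.282 FPKM (SD, n = 3 each), a log2 fold change of -0.27 ± 0.05 (SE) with an adjusted p of 0.0296 in limma, which was lost when any 1 library other than Control 2 was left out (0.0661 to 0.105). The Srebf1 call held in 9 of 15 alternative analyses. The gene Rai1 overlaps Srebf1 on the opposite strand in the deposited coordinates. Rai1 was at a mean of 10.2 FPKM in Control and 9.24 in NAC (log2 fold change -0.13, adjusted p = 0.143), and no source used here gives the strand setting of the counting.

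Acly, ATP citrate lyase, which splits citrate into the acetyl-CoA used by both branches (ENSRNOG00000016924, deposited at chromosome 10, 88392248 to 88442845), was at 29.7, 30.5 and 30.8 FPKM in Control and 35.4, 35.6 and 35.6 in NAC. The libraries of each group were nearly level and the groups were well apart. The mean went from 30.3 ± 0.573 to 35.5 ± 0.134 FPKM (SD, n = 3 each), a log2 fold change of 0.22 ± 0.04 (SE) with an adjusted p of 0.0165 in limma. Scaled to library totals the value was 0.05 (adjusted p = 0.324), and the call was also lost when any 1 library other than Control 2 was left out (0.0528 to 0.0709). The Acly call held in 8 of 15 alternative analyses. Acss2, which makes acetyl-CoA from acetate, was at 8.77, 8.93 and 9.60 FPKM in Control and 12.8, 9.68 and 10.7 in NAC. The groups touched without overlapping, NAC 1 stood highest, and the adjusted p was 0.168.

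Acaca, acetyl-CoA carboxylase 1, and Fasn, the fatty acid synthase that uses its product, gave the same picture as each other. Acaca was at 5.78, 6.07 and 5.92 FPKM in Control and 7.24, 7.54 and 6.46 in NAC. Fasn was at 16.9, 17.6 and 17.6 FPKM in Control and 21.1, 22.1 and 18.3 in NAC. In both, Control was tight, every NAC library was above it, and NAC 3 lay nearest to it. Their log2 fold changes were both 0.22 ± 0.07 (SE), with adjusted p of 0.105 and 0.109 in limma, and limma-voom on the recovered reads called both. Fasn also passed the test when NAC 3 was left out, with a log2 fold change of 0.30.

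The 3 tested genes of the set that act after the synthase, Fads1, Fads2 and Lpin1, did not pass the test. The front-end desaturases Fads1 and Fads2, which lie 81550 bases apart on chromosome 1 in the deposited coordinates and act on polyunsaturated fatty acids, were among the most abundant of the set. Fads1 was at 28.3, 25.3 and 29.2 FPKM in Control and 32.7, 32.5 and 29.0 in NAC, with NAC 3 inside the Control range (adjusted p = 0.172). Fads2 was at 32.3, 34.7 and 32.0 FPKM in Control and 36.7, 35.9 and 31.6 in NAC, with NAC 3 below all Control libraries (adjusted p = 0.561). Lpin1, a phosphatidic acid phosphatase that is also a transcriptional coregulator, was at 3.29 to 4.04 FPKM in Control and 3.84 to 4.62 in NAC (adjusted p = 0.314). Elovl6, the elongase of palmitate, had no more than 0.232 FPKM in any library, on 2 to 8 reads, and its level was too near the floor of 3 reads to be compared. The stearoyl-CoA desaturase listed under the older symbol Scd1, kept outside the set because its name differs, was at 0.39, 0.843 and 0.99 FPKM in Control and 1.56, 1.68 and 1.49 in NAC. These groups did not overlap, and the adjusted p was 0.0838 in limma.

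The levels of the regulators can also be set against each other within a library. The ratio of Srebf2 to Srebf1 in FPKM was 1.49, 1.55 and 1.65 in Control 1, 2 and 3 and 2.48, 2.44 and 2.41 in NAC 1, 2 and 3. The ratio of Insig1 to Insig2, its paralogue with the same anchoring role, was 0.652, 0.624 and 0.642 in Control and 0.904, 0.893 and 0.762 in NAC. The Srebf2 to Srebf1 ratio had to differ between the groups without overlap, because every NAC library was above Control for Srebf2 and below it for Srebf1. The Insig1 to Insig2 ratio did not overlap either, but Insig1 alone was already apart. The ratios thus add no support to the calls of these genes. With 3 libraries against 3 no exact permutation test of a single ratio could go under 0.10, so none is given.

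**Figure D3:**
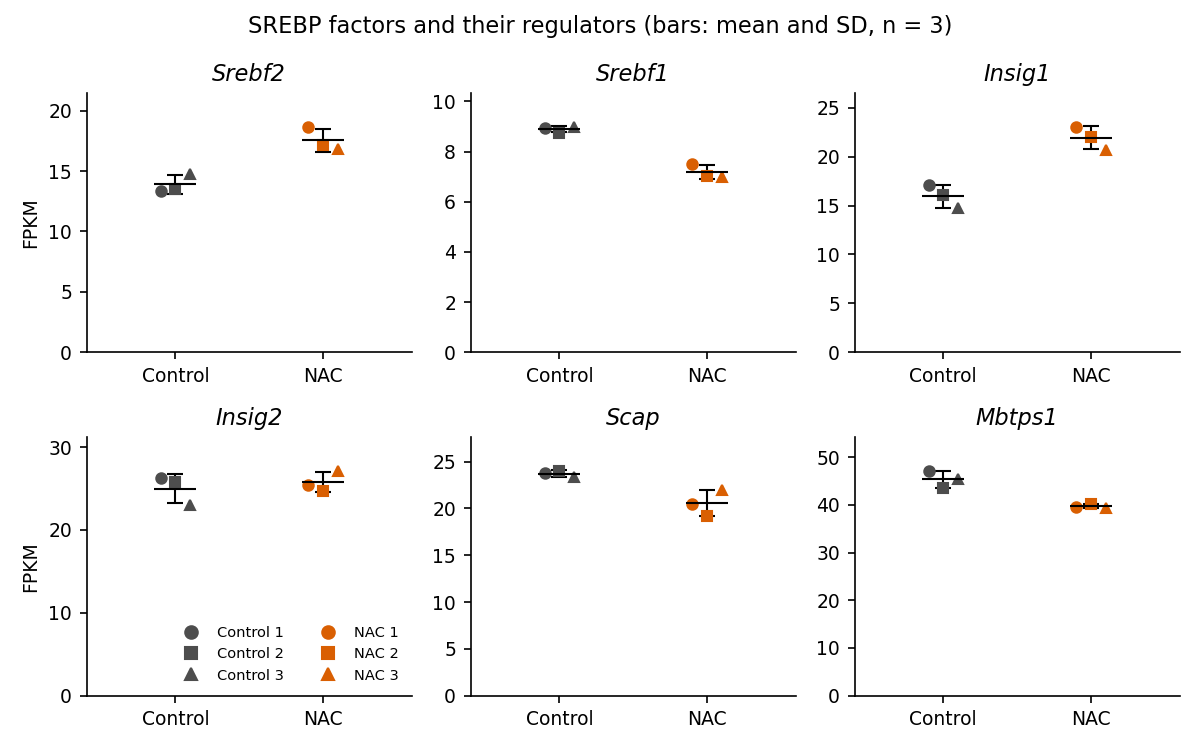
FPKM of Srebf2, Srebf1, Insig1, Insig2, Scap and Mbtps1, with 1 point per library, shaped by replicate number, and bars for the mean and SD of each group (n = 3). Srebf2 and Insig1 are higher in all 3 NAC libraries, Srebf1 is lower in all 3, and Insig2 overlaps.

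The size of the difference varied between NAC libraries more than between Control libraries. Against the Control mean, the median log2 difference of the sterol genes was 0.25 in NAC 1, 0.20 in NAC 2 and 0.06 in NAC 3, while the 3 Control libraries were at -0.02, -0.003 and 0.05. The fatty acid genes gave 0.23, 0.23 and 0.09 in NAC and -0.03, -0.005 and 0.02 in Control. NAC 3 was thus the library nearest to Control in both branches, and for the sterol genes its median was close to that of Control 3. It was the lowest NAC library for 18 of the 29 tested genes (62.1%), against 35.9% of all tested genes. For read counts beyond this gene set, chi-square over its degrees of freedom against the Control libraries was 25.4 to 27.6 for NAC 3. It was 31.3 to 34.8 for NAC 1 and 31.6 to 32.3 for NAC 2, which both had more reads than NAC 3. Correlations with Control over all tested genes were 0.9783 to 0.9796 for NAC 3, 0.979 to 0.9811 for NAC 1 and 0.9788 to 0.9805 for NAC 2. Whether NAC 3 was nearer to Control beyond this gene set was not tested. Replicate spread differed between members too: the coefficient of variation in Control ran from 1.36% for Srebf1 to 27.9% for Idi1, and in NAC from 0.377% for Acly to 17.9% for Pmvk among tested genes.

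**Figure D4:**
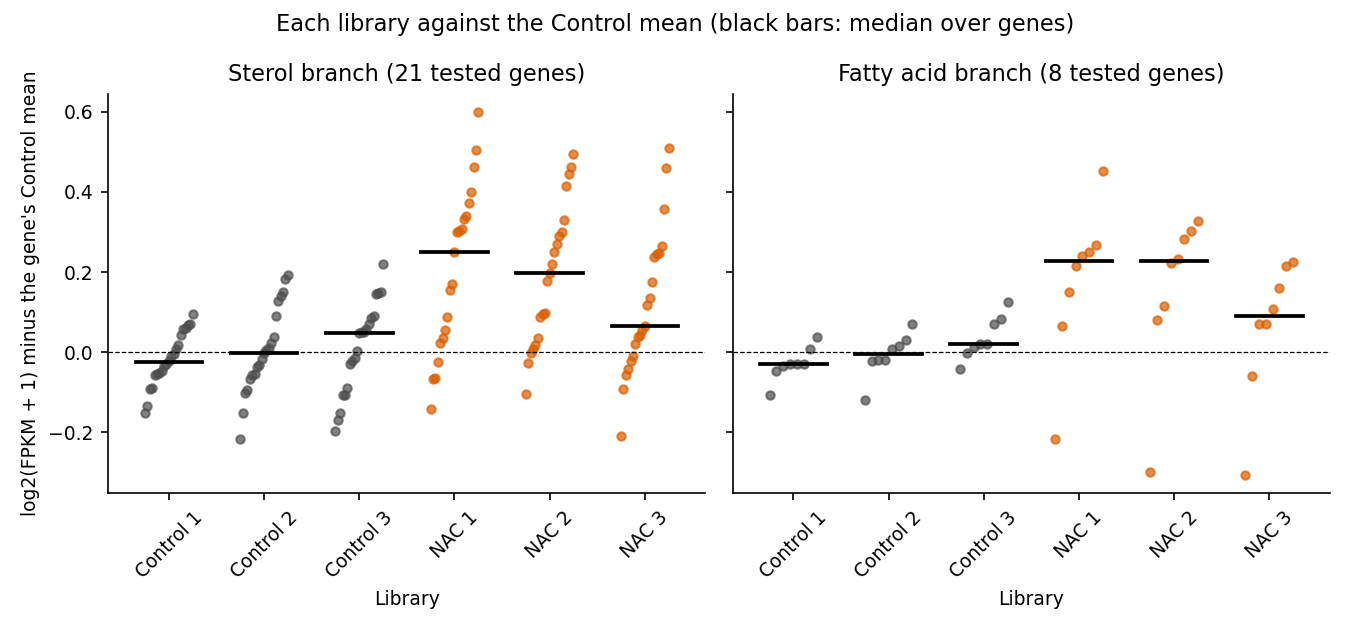
Difference of each gene from its Control mean on the log2(FPKM + 1) scale in each of the 6 libraries, for the 21 sterol and 8 tested fatty acid genes, with points for genes and black bars for the median over genes. The sterol medians are 0.25, 0.20 and 0.06 in NAC 1, 2 and 3.

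Other genes of the 2 pathways were put in lists by function, with earlier results of these data known. Those named from the lists are mainly the called ones, so they do not stand for their lists. Acat1, the mitochondrial thiolase that makes and splits acetoacetyl-CoA, was at 12.9, 14.2 and 14.5 FPKM in Control and 18.2, 17.1 and 18.8 in NAC. Its groups were well apart, with a log2 fold change of 0.36 (adjusted p = 0.0191 in limma), whereas Acat2, its cytosolic counterpart in the set, overlapped. Lrp1, a large endocytic receptor that takes up lipoprotein remnants, was at 514, 503 and 543 FPKM in Control and 724, 726 and 673 in NAC, also apart (log2 fold change 0.44, adjusted p = 0.00365). The Lrp1 call held without each library in turn, while the Acat1 call did not hold with Control 1 or any 1 of the NAC libraries left out (adjusted p 0.0521 to 0.0761) and with scaling to library totals.

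Of 11 genes of SREBP processing and sterol sensing, 0 were called higher and 1 lower by limma, against 1 and 2 both by limma-voom and at an unadjusted p under 0.05. Across all 12733 tested genes, 6.08% were called higher and 2.72% lower by limma. At an unadjusted p under 0.05, 1836 of them were higher and 1519 lower. No list was tested against these shares. The 1 called lower was Mbtps1, the site-1 protease that makes the first cut in SREBP, at 47.1, 43.6 and 45.4 FPKM in Control and 39.6, 40.3 and 39.4 in NAC (log2 fold change -0.19 ± 0.04 SE, adjusted p = 0.0413), a call lost without any 1 library other than Control 2 (0.109 to 0.126). Scap, the SREBP escort, was at 23.8, 24.0 and 23.3 FPKM in Control and 20.4, 19.2 and 22.0 in NAC. All its NAC libraries were lower, but it did not pass the test (adjusted p = 0.0763). Insig2 was at 26.2, 25.8 and 23.0 FPKM in Control and 25.5, 24.7 and 27.1 in NAC and overlapped (adjusted p = 0.703). Among 6 tested genes of liver X receptor response, efflux and esterification, Apoe, the apolipoprotein E gene, rose (log2 fold change 0.24, adjusted p = 0.02) and 0 fell by limma or limma-voom, while 2 had values below 0 with an unadjusted p under 0.05. The median log2 fold change of this list was -0.12, beside -0.01 over all tested genes, and 2 of its 6 tested genes were above 0. The Apoe call was lost without any 1 library other than Control 2 (0.0524 to 0.083) and with library totals (0.257). None of 13 genes that use isoprenoids for other products was called in either direction by limma or limma-voom, and 0 had an unadjusted p under 0.05. The most abundant of them, the prenyltransferase subunits Rabggtb and Fnta, went from a mean of 40.9 to 44.9 and from 30.5 to 28.3 FPKM.

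On the fatty acid side, 3 of 17 tested genes of synthesis, elongation and activation were called higher and 0 lower by limma, with 0 lower also by limma-voom and at an unadjusted p under 0.05. The shares of all tested genes called by limma were 6.08% higher and 2.72% lower, and the lists below were not tested against them. Scd2, a stearoyl-CoA desaturase far more abundant here than Scd1, was at 55.9, 61.2 and 55.8 FPKM in Control and 77.6, 78.8 and 70.3 in NAC. Its groups were well apart (log2 fold change 0.38, adjusted p = 0.0139), and since Scd1 and Scd2 are close paralogues, reads that fit both could have been split. Hacd2, a dehydratase of the elongation cycle, and Fads3, the neighbour of Fads1 and Fads2, had log2 fold changes of 0.35 and 0.24 (adjusted p = 0.0214 and 0.0264). The calls of Scd2 and Hacd2 were lost without any 1 library other than Control 2 and NAC 3 (adjusted p 0.0527 to 0.0628 and 0.0601 to 0.0832). That of Fads3 was lost without any 1 other than Control 2 (0.0544 to 0.101), and those of Hacd2 and Fads3 also with library totals. Of 12 genes of glycerolipid assembly 1 was called higher and 0 lower by limma, with 0 lower by limma-voom and 1 at an unadjusted p under 0.05. It was Dgat2, which makes triacylglycerol, at 12.9, 13.0 and 12.9 FPKM in Control and 21.9, 22.9 and 21.4 in NAC (log2 fold change 0.73, adjusted p = 0.00052), a call that held without each library in turn. Of the fatty acid oxidation genes, 0 of 18 tested were called higher and 3 lower by limma, 0 higher by limma-voom and 2 higher at an unadjusted p under 0.05. Those called lower were Cpt1a and Cpt1c, carnitine palmitoyltransferase genes, and Hadhb, a subunit of the mitochondrial trifunctional protein, with log2 fold changes of -0.33, -0.23 and -0.17 (adjusted p = 0.0125, 0.04 and 0.0393). The Hadhb call was lost on leaving out any 1 of the 6 libraries (0.0605 to 0.13), that of Cpt1c without any 1 other than Control 2 (0.0996 to 0.119), and that of Cpt1a without Control 3, NAC 1 or NAC 2 (0.0524 to 0.0609). The medians were 0.02 over the further fatty acid synthesis genes and -0.07 over the oxidation genes, beside -0.01 over all tested genes.

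**Figure D5:**
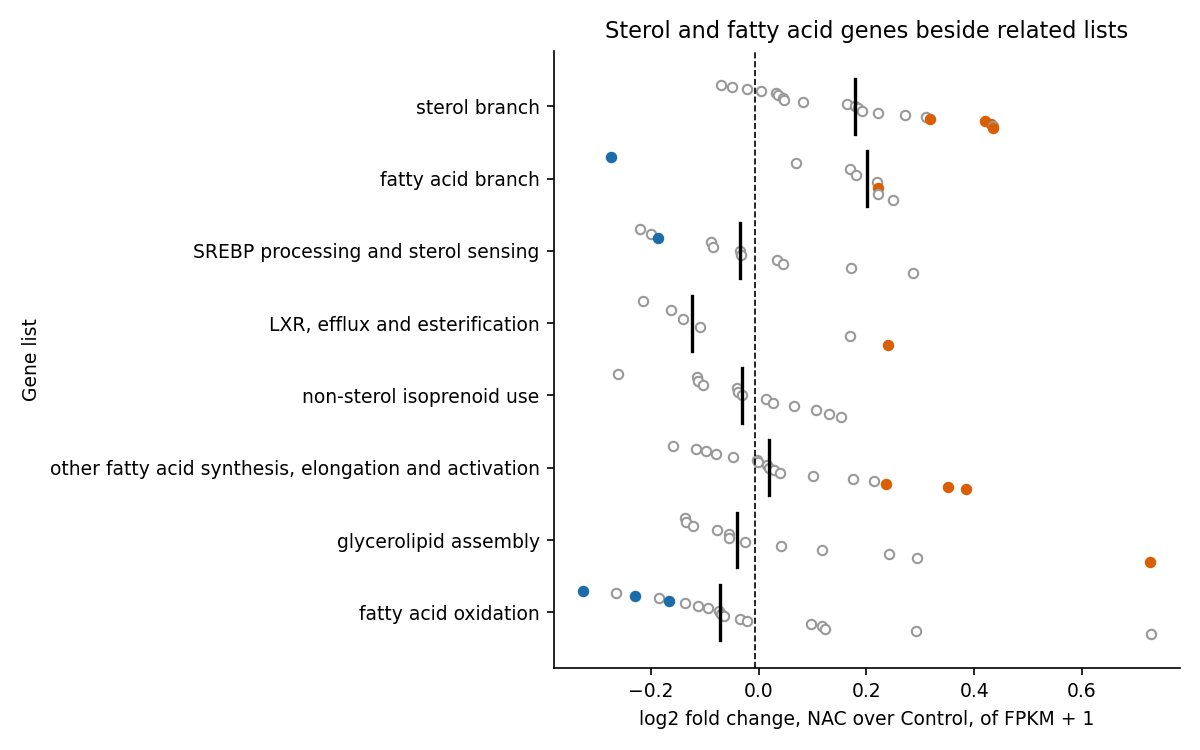
Log2 fold change of each tested gene, NAC over Control on the log2(FPKM + 1) scale, in the 2 branches and 6 further lists. Orange points were called higher, blue points lower and open grey points not called, black bars are list medians, and the dashed line is the median of all tested genes (-0.01); the sterol median is 0.18 and the oxidation median -0.07.

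The summed level of the tendon markers was higher in every NAC library, and its part in these results was not tested. Of the genes in the set, 7 share deposited coordinates with another row, among them Idi1 with Wdr37 and Srebf1 with Rai1 on the opposite strand.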

How the data were processed

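Messenger RNA libraries of 6 samples (3 Control, 3 NAC) were sequenced from total RNA with a SMARTer kit, per the labels' protocols. The authors deposited 1 table of FPKM values; no source used here names the aligner, counter or strand setting. The submitters' processing notes list the mouse builds GRCm38 and mm10, while 32545 of 33300 rows carry rat Ensembl identifiers, so the build of the coordinates is unknown. Columns headed NAC were matched to the NAC samples by name, and the remaining group of 3 to Control. FPKM values gave whole reads within 0.01 for 100% of values; the scaling totals implied by them were 1.02 to 1.04 times the summed reads in Control and 0.909 to 0.925 times in NAC.

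Fold changes came from limma 3.58.1 (R 4.3.3; trended eBayes) on log2(FPKM + 1) over the 12733 rows with a mean FPKM of at least 1, with Benjamini-Hochberg adjustment and a threshold of 0.05; the fit was tested on simulated data. Summaries used Python 3.11.15. The 15 alternatives were another pseudocount (0.1), no filter, a stricter filter (mean FPKM 5 or above), scaling to library totals, median-of-ratios rescaling, quantile normalisation, limma-voom on recovered reads, no variance trend, a replicate block and leaving out each library. The limma-voom fit took as library sizes the scaling totals implied by the FPKM values. The precision of low genes is limited by their reads, and a floor of 3 reads was used.

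The genes and lists were chosen with earlier results of these data known. Every gene of the set with a row is named; of each further list the called genes, up to 4, or the 2 most abundant where none was called, and Scap and Insig2 in any case. Some further genes, and the counts of the lists that hold them, are not reported here. Of the further pathway and marker genes 2 had no row and 4 were found by an older symbol. Counts of libraries within a group differed beyond sampling noise, with 3.59 to 9.2 for chi-square over its degrees of freedom, so none was merged.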

Additional observations from a re-analysis of the deposited data

How the results depend on the processing

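Of the sterol genes, 4 were called higher; the count was 0 with no filter on low values, 1 with scaling to library totals, 1 with the replicate block and 0 to 2 with 1 library left out. Of the fatty acid genes 1 was called higher, against 0 with library totals, 3 with limma-voom, 0 with the block and 0 to 1 with 1 library left out; 1 was called lower, against 0 with the block and 0 to 1 with 1 library left out. The branch medians moved from 0.18 to 0.020 (sterol) and from 0.20 to 0.041 (fatty acid) with library totals, which shift the median of all genes to -0.16. That shift alone takes genes with small values past 0: 12 in place of 18 of 21 sterol genes and 6 in place of 7 of 8 fatty acid genes were above 0, and Npc2 (-0.12) and Slc25a1 (-0.14) changed sign. The cause of these changes was not tested beyond what the settings themselves do: no filter adds tests (33300), and leaving out a library leaves fewer samples.

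Over all genes, 774 higher and 346 lower became 235 and 99 with no filter, 467 and 3722 with library totals, 1035 and 529 with limma-voom, 549 and 206 without the variance trend, 466 and 110 with the replicate block, and 264 to 859 and 51 to 347 with 1 library left out. The samples share only a replicate number: deviations of same-numbered libraries correlated at 0.06, 0.06 and -0.05, so the block is no pairing by design. Dgat2 was called in all 15 alternatives. Depth limits Idi1, Tm7sf2, Stard4 and Hsd17b7, each with under 100 reads in every library.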
